A study of Mus musculus with 6 samples.

Results

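Erbb3, Erbb2, Egfr and Erbb4 encode the receptors of the ErbB family, and Errfi1 encodes an inhibitor that these receptors induce and that then binds and blocks them. These 5 genes were taken from 19937 genes measured in mammary epithelial organoids, and every probe set that the platform annotation assigns to exactly one of their symbols was used. Each gene had 1 such probe set, so 5 of 34760 probe sets are described. A further probe set that is assigned to Erbb2 together with another gene was left out. The arrays labelled DOX, 3 in number, came from organoids kept with 5 µM doxycycline for 14 days, and the 3 control arrays came from organoids kept without it. All organoids, controls included, were from female FVB mice of the ErbB3 DOX-KO genotype, in which doxycycline switches on a loss of Erbb3, and were embedded in growth factor-reduced Matrigel. The promoter and recombinase behind the switch, the deleted exons and the age of the mice are not given in the labels. The effect of doxycycline itself and the effect of losing Erbb3 cannot be told apart, because no organoids without the switch were analysed here. The series describes 3 biological replicates, and the labels do not say whether these came from separate mice. Precision throughout is limited by the number of arrays.

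ErbB receptors sit in the cell membrane and signal as pairs once a ligand of the epidermal growth factor or neuregulin families has bound. The protein of Erbb2 has no known ligand of its own and is the preferred partner of the others, whereas that of Erbb3 binds neuregulins, has very weak kinase activity and passes the signal on mainly through phosphatidylinositol 3-kinase. In the mammary gland Egfr is needed for growth of the ducts, Erbb4 takes part in milk production, and Erbb2 and Erbb3 are known from luminal cells, the cells that line the ducts.

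The sequence before the start of the transcript is shown for Erbb2 and Errfi1, the members that were lower in the arrays labelled DOX. RefSeq's promoter table (GRCm38.p6) held 4 of the 5 genes; Erbb3 had no entry. The first sequence is the 250 bases before the start of Erbb2 on the plus strand of chromosome 11, at chr11:98412234-98412483, and the second is the 250 bases before the downstream start of Errfi1 on the plus strand of chromosome 4, at chr4:150854820-150855069. Capitals mark matches to a cAMP response element (TGACGTCA) and a TATA box (TATAAA).
Erbb2: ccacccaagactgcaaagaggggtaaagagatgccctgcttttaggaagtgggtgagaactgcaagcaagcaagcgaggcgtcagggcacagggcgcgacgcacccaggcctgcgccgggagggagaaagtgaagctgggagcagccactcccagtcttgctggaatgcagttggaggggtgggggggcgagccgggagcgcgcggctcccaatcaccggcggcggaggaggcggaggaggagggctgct
Errfi1: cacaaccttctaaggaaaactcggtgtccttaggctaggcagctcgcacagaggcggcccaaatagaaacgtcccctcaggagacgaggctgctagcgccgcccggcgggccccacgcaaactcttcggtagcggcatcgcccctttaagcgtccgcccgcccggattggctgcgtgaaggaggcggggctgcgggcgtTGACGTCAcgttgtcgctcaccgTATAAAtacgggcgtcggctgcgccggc

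Both strands were searched for these motifs and for AP-2 (GCCNNNGGC), FOXO (GTAAACA), STAT5 (TTCNNNGAA) and ETS (CAGGAAGT) motifs, none of which overlapped another in these sequences. The Errfi1 sequence held the cAMP response element 51 to 44 bases before the start and the TATA box 28 to 23 bases before it. Of 32851 promoter entries, 1.55% held the cAMP response element and 12.4% the TATA box in the same 250 bases. None of the 6 motifs was found in the Erbb2 sequence, whose GC content was 66.0%, nor in the windows of Egfr, Erbb4 or the upstream start of Errfi1. The AP-2 motif was present in 13.7% of all entries, FOXO in 3.17%, STAT5 in 7.02% and ETS in 2.69%. A match is a description of the letters and not a binding site.

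The deposited values are log2 expression summaries, and DOX replicate 2 stood apart before any comparison. Its correlation with any other array across genes was at most 0.865, against at least 0.963 among the other 5 arrays, and a line through its values against the mean of the control arrays had a slope of 0.548, so that high values read lower and low values read higher on it. With all 6 arrays, 24 genes were higher and 450 lower at a Benjamini-Hochberg adjusted p under 0.05 in limma, which is 2.38% of the 19937 genes. A second quantile normalization gave 185 higher and 626 lower genes. Without DOX replicate 2, 2454 genes were higher and 2855 lower, which is 26.6% of all genes. The tests of the 5 genes and the counts of each gene list are therefore given with and without that array, and the second form rests on 2 arrays labelled DOX.

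The comparison asks which members of the receptor family differ with doxycycline, the agent meant to remove Erbb3. Erbb2 and Errfi1 were lower in all 3 arrays labelled DOX than in any control array, Erbb3 and Egfr overlapped between the groups, and Erbb4 read low on the scale in both groups. None of the 5 genes passed in limma with all 6 arrays, against 2.38% of all genes, and 1 of them, Erbb2, had an unadjusted p under 0.05. Of all 19937 genes, 2795 had an unadjusted p under 0.05 with all arrays and 7371 without DOX replicate 2. The unadjusted counts of each list below are to be read against these. When DOX replicate 2 was left out, Erbb2 and Errfi1 fell and none rose, which is 2 of 5 genes against 26.6% of all genes called and 14.3% called lower. The values of 2 of the 5 genes did not overlap between groups with all arrays, both lower, against 32.0% of all genes in either direction and 20.3% lower. When that array was left out, 4 of the 5 did not overlap, against 51.6% of all genes. With 5 genes, these shares are no result about the family as a whole, and each gene is described by itself.

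**Figure D1:**
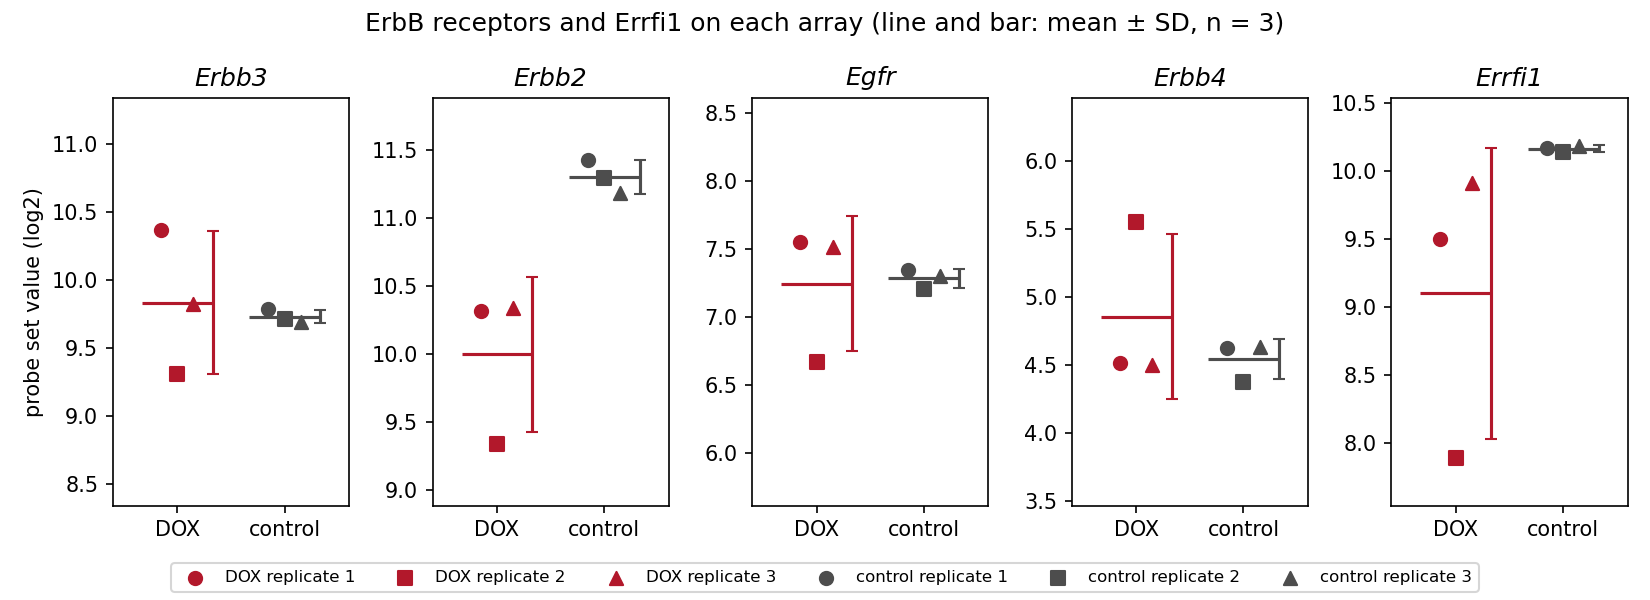
Probe set value (log2 scale) of each gene on each array, with DOX arrays on the left of each panel and control arrays on the right, and the mean with SD (n = 3) as line and bar; every panel spans the same number of log2 units. DOX replicate 2, the red square, is the lowest array for Erbb3, Erbb2, Egfr and Errfi1 and the highest for Erbb4, and all red symbols lie below the grey ones for Erbb2 and Errfi1.

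Erbb3, the gene that the switch is meant to remove, read 10.36, 9.31 and 9.82 in DOX replicates 1, 2 and 3, against 9.78, 9.71 and 9.69 in control replicates 1, 2 and 3. DOX replicate 1 was the highest array and DOX replicate 2 the lowest, DOX replicate 3 lay 0.04 above the highest control array, and the groups overlapped. The SD was 0.53 in arrays labelled DOX and 0.05 in control arrays (n = 3 each), a ratio of 11.2. DOX replicates 1 and 3 alone lay 0.54 apart, against a range of 0.09 over the 3 control arrays. The group difference was 0.10 (95% confidence interval −0.58 to 0.79, limma adjusted p = 0.845), and without DOX replicate 1 its sign turned (−0.16). The fit that left out DOX replicate 2 gave 0.37 (0.03 to 0.70, limma adjusted p = 0.105), a fold of 1.29 with an interval of 1.02 to 1.63, so a lower signal of this probe set was not seen in DOX replicates 1 and 3. The signal of this probe set cannot check the labels, since it is not known here whether its probes lie in the deleted exons, and each direction is that of the labels.

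Erbb2, the partner without a ligand, had the clearest lower values of the family. It read 10.32, 9.34 and 10.34 in DOX replicates 1, 2 and 3, against 11.43, 11.29 and 11.18 in control replicates 1, 2 and 3. Every array labelled DOX lay below every control array, and DOX replicates 1 and 3 differed by 0.02. The mean was 9.996 ± 0.57 in arrays labelled DOX and 11.30 ± 0.12 in control arrays (SD, n = 3 each). The difference of −1.31 (SE 0.31, 95% confidence interval −2.04 to −0.57) did not pass over all genes (limma adjusted p = 0.108). In the fit that left out DOX replicate 2, Erbb2 fell by 0.97 on the log2 scale (SE 0.12, limma adjusted p = 1.33e-04), which is 1.97-fold lower. It also passed after a second quantile normalization of all 6 arrays (−1.13, limma adjusted p = 0.0143) and after cyclic loess normalization (−0.93, limma adjusted p = 0.0102). A two-sided exact permutation test of the 6 arrays gave p = 0.1, the smallest p that 3 against 3 arrays allow.

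Egfr, which encodes the receptor of epidermal growth factor, did not pass and had no settled direction. It read 7.55, 6.67 and 7.51 in DOX replicates 1, 2 and 3, against 7.34, 7.20 and 7.30 in control replicates 1, 2 and 3. DOX replicates 1 and 3 lay above all control arrays and DOX replicate 2 below all of them. All arrays together gave −0.04 (95% confidence interval −0.70 to 0.62, limma adjusted p = 0.939), and leaving out DOX replicate 2 gave 0.25 (0.004 to 0.49, limma adjusted p = 0.129). The second interval allows a fold of 1.00 to 1.41.

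Erbb4, which encodes the other neuregulin receptor of the family, read 4.51, 5.55 and 4.50 in DOX replicates 1, 2 and 3, against 4.62, 4.37 and 4.63 in control replicates 1, 2 and 3. The high array was DOX replicate 2, on which low values read higher in general, and the other 5 arrays lay within 0.26 of each other. DOX minus control was −0.04 with that array left out (95% confidence interval −0.31 to 0.23, limma adjusted p = 0.857), and with all arrays it was 0.31 (limma adjusted p = 0.608). On control arrays the value lay between the percentiles 21.3 and 27.2 of all genes. The deposited values carry no detection calls, so a change of a transcript at such a low level can be understated.

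Errfi1, also known as Mig6, the inhibitor that the receptors induce, read 9.50, 7.89 and 9.91 in DOX replicates 1, 2 and 3, against 10.16, 10.14 and 10.19 in control replicates 1, 2 and 3. All arrays labelled DOX lay below all control arrays, but DOX replicates 1 and 3 were 0.41 apart while the control arrays spanned 0.05. The mean was 9.10 ± 1.07 in arrays labelled DOX and 10.16 ± 0.02 in control arrays (SD, n = 3 each). The difference of −1.06 (SE 0.51, 95% confidence interval −2.28 to 0.15) did not pass with all arrays (limma adjusted p = 0.409). With DOX replicate 2 left out, Errfi1 fell by 0.46 on the log2 scale (SE 0.13, 95% confidence interval −0.75 to −0.16, limma adjusted p = 0.0283), which is 1.37-fold lower.

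**Figure D2:**
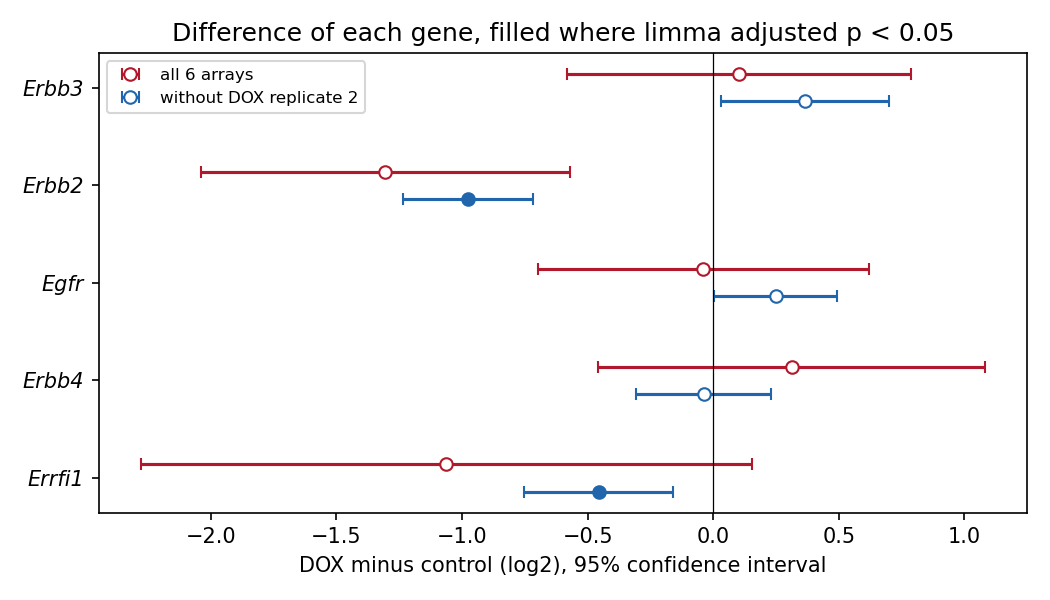
Difference of arrays labelled DOX minus control arrays for each gene on the log2 scale, with its 95% confidence interval from limma; red is the fit of all 6 arrays, blue the fit without DOX replicate 2, and symbols are filled where the adjusted p is under 0.05. Erbb2 (−0.97) and Errfi1 (−0.46) are filled in the fit without DOX replicate 2, and no symbol is filled in the fit of all arrays.

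Erbb2 and Erbb3 changed by unequal amounts within every array labelled DOX, and their levels came closer. Control means were 11.30 for Erbb2 and 9.73 for Erbb3, against 9.996 and 9.83 in arrays labelled DOX. Erbb2 minus Erbb3 changed from its control mean by −1.62, −1.55 and −1.06 in DOX replicates 1, 2 and 3, against deviations of 0.07, 0.01 and −0.08 in control replicates 1, 2 and 3. DOX replicate 2 lay between the other arrays labelled DOX on this measure. The measure compares changes and not levels of the genes, but it is not free of the effect of level on that array. Over all arrays the mean was −1.41 and with DOX replicate 2 left out it was −1.34, and both had a two-sided exact permutation p of 0.1, the smallest possible. Errfi1 minus Egfr changed by −0.93, −1.66 and −0.48 in DOX replicates 1, 2 and 3, against −0.06, 0.05 and 0.00 in control replicates 1, 2 and 3. Over all arrays its mean was −1.02 and with DOX replicate 2 left out it was −0.70, again with an exact permutation p of 0.1. Control means were 10.16 for Errfi1 and 7.28 for Egfr. On DOX replicate 2 high values read lower and low values higher, so genes of unlike level draw closer there. The part of this in either measure was not tested.

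Because DOX replicate 2 shifted genes by their level, all genes were cut into 10 steps by rank of control level, 1993 or 1994 genes a step. Each member was set beside its own step. The steps are fixed and not centred on a member, so a step is no close match of level. In the top step, control percentiles were 99.0 to 99.2 for Erbb2 and 94.7 to 95.3 for Erbb3. Erbb3, Erbb2 and Errfi1 shared the top step, whose median on DOX replicate 2 lay at −1.59 from the control mean (quartiles −2.20 and −0.97). Erbb3 lay at −0.42 on that array, above the upper quartile of its step. Erbb2 lay at −1.97, inside the quartiles, and Errfi1 at −2.28, below the lower quartile. On DOX replicates 1 and 3 the median of the step was −0.06 and −0.12, and Erbb2 lay at −0.99 and −0.96, below the lower quartiles of −0.42 and −0.46. Errfi1 lay at −0.66 on DOX replicate 1, below the lower quartile, and at −0.25 on DOX replicate 3, inside the quartiles. Erbb3 lay at 0.64 on DOX replicate 1, above the upper quartile of 0.24, and at 0.09 on DOX replicate 3, inside the quartiles.

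**Figure D3:**
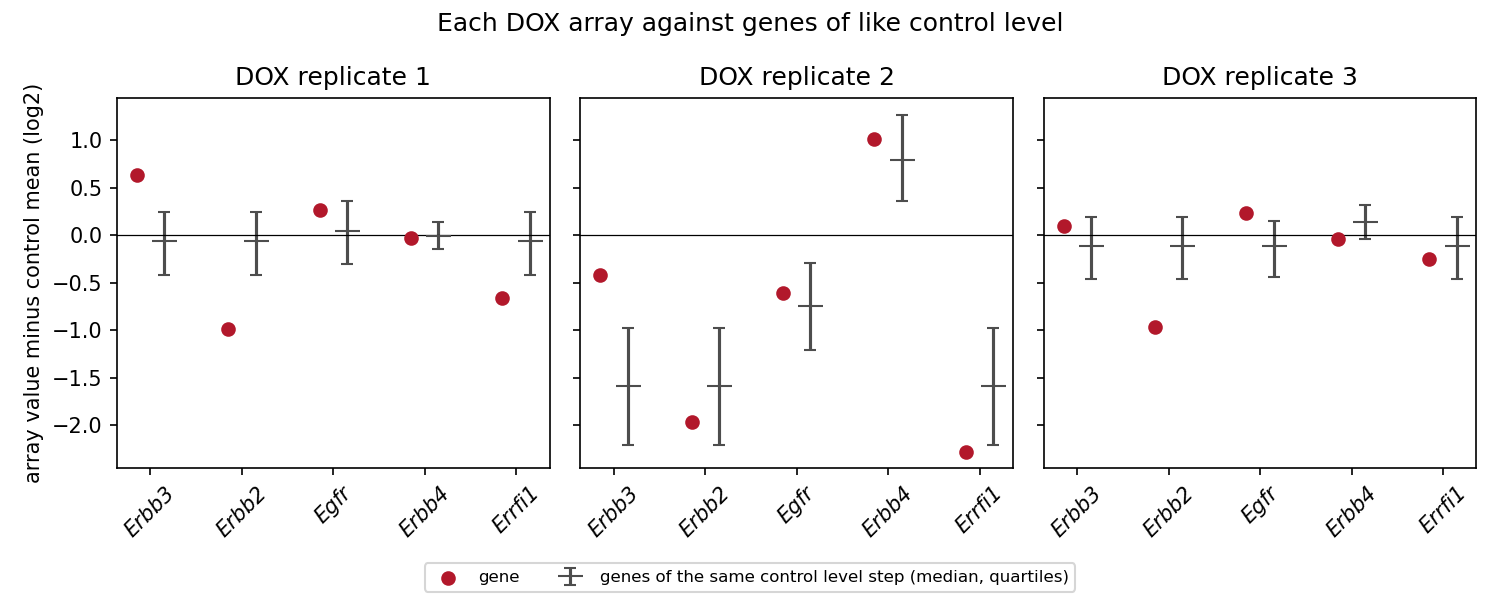
Value of each gene on each array labelled DOX minus its control mean (log2, red points), beside the median and quartiles of genes of the same 10% step of control level (grey). On DOX replicate 2 the grey medians run from −1.59 in the top step to 0.79 in the step of Erbb4, and Erbb2 lies below the grey quartiles on DOX replicates 1 and 3 but inside them on DOX replicate 2.

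Egfr and Erbb4 stayed near the median of their own step on DOX replicate 2. Egfr lay at −0.61 there, against −0.75 for its step, and Erbb4 at 1.01, against 0.79. On DOX replicate 3 Egfr lay at 0.23, above the upper quartile of its step (0.15), and on DOX replicate 1 at 0.27, inside the quartiles. The percentile of Erbb2 among all genes of an array was 97.2, 98.0 and 97.5 in DOX replicates 1, 2 and 3, against 99.2, 99.1 and 99.0 in control replicates 1, 2 and 3, so the groups stayed apart by rank, while DOX replicate 2, the lowest array by value, was the highest of the arrays labelled DOX by rank. That of Errfi1 was 93.2, 90.5 and 96.0, against 96.8, 96.8 and 96.9. Erbb3 had percentiles of 97.4, 97.9 and 95.6, against 94.7 to 95.3 in control arrays, and by this measure all arrays labelled DOX lay above all control arrays.

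Luminal markers were read beside the members, since they mark the cells in which Erbb2 and Erbb3 are best known. Of 7 markers (Krt8, Krt18, Krt19, Epcam, Cdh1, Cldn3 and Cldn7) none passed in limma with all arrays and 2 had an unadjusted p under 0.05. The groups did not overlap for 4 of the 7, all lower, against 20.3% of all genes. The keratins Krt8 and Krt18 fell without DOX replicate 2 and 0 of the 7 rose, so 28.6% of the markers were called in that fit, against 26.6% of all genes. Cdh1 and Cldn3 differed by −0.07 and −0.14 in the same fit and did not pass (limma adjusted p = 0.719 and 0.566). The summed log2 level of the 7 markers was 64.9 to 71.4 in arrays labelled DOX, against 73.3 to 73.5 in control arrays. Krt8 averaged 11.51 in arrays labelled DOX and 12.52 in control arrays, so this marker of the labelled epithelium was present, while Krt19 read low in both (4.79 and 4.80). In RNA of whole organoids, fewer cells of a type and less RNA per cell cannot be told apart.

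Relative to the mean of the 7 luminal markers on the same array, a scale chosen after the data were seen, Erbb2 lay at −0.70, −0.76 and −0.61 from its control mean in DOX replicates 1, 2 and 3. Its difference of −0.69 on this scale compares with −1.31 on the deposited scale, and the exact permutation p was 0.1, the smallest possible. Erbb3 lay at 0.92, 0.79 and 0.45, above its control mean on all arrays labelled DOX. Egfr lay at 0.55, 0.60 and 0.59, nearly alike on the 3 arrays, and Erbb4 at 0.25, 2.22 and 0.31. The exact permutation p of Erbb3, Egfr and Erbb4, all higher on this scale, was also 0.1, so this p does not set Erbb2 apart. The marker mean itself lay at −0.28, −1.21 and −0.36 from its control mean in DOX replicates 1, 2 and 3. A gene without any change therefore reads higher on this scale. Errfi1 lay at −0.38, −1.07 and 0.11 and thus lost its common direction, with an exact permutation p of 0.4. The part that luminal cells have in the differences of the 5 genes was not tested.

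Markers of other cell types were read for the same reason, since Schwann cells carry Erbb3 and fibroblasts carry Egfr. The basal markers had a summed level of 35.6 to 39.7 in arrays labelled DOX, against 38.9 to 39.8 in control arrays. Of 7, Oxtr fell with all arrays, against 2.26% of all genes. Krt14 and Oxtr fell without DOX replicate 2 (−1.06 and −1.71 on the log2 scale) and none rose. Thus 28.6% of the basal markers were called in that fit, against 26.6% of all genes. Krt5, Trp63, Acta2, Mylk and Cnn1 read low in control arrays, with means of 4.45 to 5.58. Of 6 fibroblast, 5 endothelial and 5 adipocyte markers none passed in limma with or without DOX replicate 2, and none had an unadjusted p under 0.05 with all arrays. Of 5 immune markers none passed with all arrays and 1 had an unadjusted p under 0.05. Ptprc and Cd68 rose without DOX replicate 2, against 12.3% of all genes that rose in that fit. Of 4 Schwann cell markers measured none passed in either fit or had an unadjusted p under 0.05. Among them Cdh19 read 8.43, 4.39 and 8.26 in DOX replicates 1, 2 and 3, against 8.24, 7.84 and 8.10 in control replicates 1, 2 and 3. The others, S100b, Foxd3 and Mbp, read lower, with control means of 4.36, 5.57 and 6.66. Without DOX replicate 2 they differed by 0.03, −0.21 and 0.04, and Cdh19 by 0.29. Sox10, a transcription factor of glial and some mammary cells, averaged 9.07 in arrays labelled DOX and 9.41 in control arrays. The part of these cells in the Erbb3 values was not tested.

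Around the receptors, 71 of 74 listed genes of ligands, proteases, adaptors, turnover and transcription were measured. With all arrays 1 rose and 2 fell (4.23%, against 2.38% of all genes, 0.120% higher and 2.26% lower). An unadjusted p under 0.05 was found for 13 of the 71, against 2795 of all 19937 genes. With DOX replicate 2 left out, 16 rose and 13 fell (40.8%, against 26.6% of all genes). The median difference of the listed genes was −0.24 and that of all genes 0.02 over 6 arrays, and 0.05 and 0.01 over the 5 arrays.

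**Figure D4:**
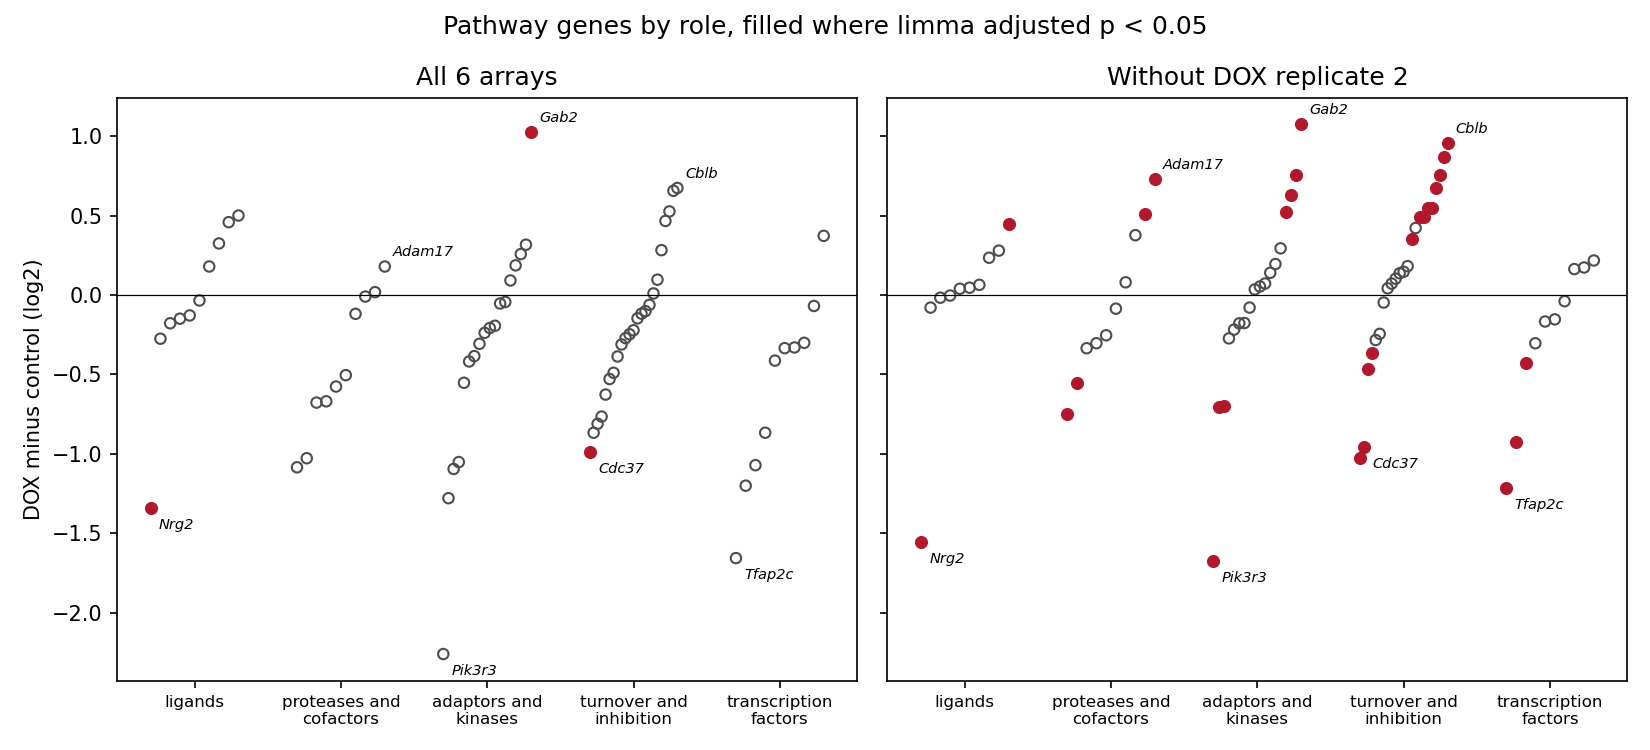
Difference of arrays labelled DOX minus control arrays (log2) for 71 pathway genes, sorted within each role, with all 6 arrays (left panel) and without DOX replicate 2 (right panel); points are filled where the limma adjusted p is under 0.05. With all arrays Gab2, Nrg2 and Cdc37 are filled, and without DOX replicate 2, 29 points are filled, 9 of them above 0 in the turnover group.

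Of 10 ligands measured, 1 fell with all arrays. Nrg2, a neuregulin, read 6.00, 6.73 and 6.18 in DOX replicates 1, 2 and 3, against 7.62, 7.68 and 7.63 in control replicates 1, 2 and 3, and the groups did not overlap. It fell by 1.34 on the log2 scale (SE 0.23, limma adjusted p = 0.0407). Nrg1, the best known ligand of Erbb3, differed by −0.15 with all arrays and by −0.016 without DOX replicate 2, and passed in neither (adjusted p = 0.706 and 0.946 in limma). Over the 5 other arrays than DOX replicate 2, Epgn, an Egfr ligand, rose by 0.45 (limma adjusted p = 0.0207) and Nrg2 was the ligand that fell (−1.56). Epgn differed by −0.034 with all arrays.

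Of 10 proteases and cofactors that release ligands or cleave receptors, none passed in limma with all arrays and 2 had an unadjusted p under 0.05. Adam17, the main protease that frees Egfr ligands, read 10.19, 8.55 and 10.21 in DOX replicates 1, 2 and 3, against 9.51, 9.41 and 9.49 in control replicates 1, 2 and 3. DOX replicates 1 and 3 were above and DOX replicate 2 below all control arrays. With DOX replicate 2 left out, Adam17 and Adam10 rose by 0.73 and 0.51 on the log2 scale (limma adjusted p = 5.81e-04 and 0.00635). Rhbdf1, a cofactor of Adam17, and the related protease gene Adam12 fell by 0.75 and 0.56 (limma adjusted p = 0.00134 and 0.00433). With all arrays Adam17, Adam10, Rhbdf1 and Adam12 differed by 0.18, −0.12, −1.03 and −0.58.

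Of 18 adaptors and kinases that bind active receptors, 1 rose with all arrays and 4 had an unadjusted p under 0.05. Gab2, a docking protein for phosphatidylinositol 3-kinase and the phosphatase of Ptpn11, read 7.89, 7.58 and 7.57 in DOX replicates 1, 2 and 3, against 6.53, 6.71 and 6.72 in control replicates 1, 2 and 3. DOX replicate 2 lay beside the other arrays labelled DOX here. Gab2 rose by 1.03 on the log2 scale (SE 0.18, limma adjusted p = 0.0455). Without DOX replicate 2, 4 of the 18 rose and 3 fell, against 12.3% of all genes that rose and 14.3% that fell, and Gab2 was among those that rose (1.07). Pik3r3, a regulatory subunit of phosphatidylinositol 3-kinase, fell by 1.68 in that fit (limma adjusted p = 1.74e-06), and Shc1, the adaptor that links the receptors to Ras, by 0.70 (limma adjusted p = 0.00111). Sos2, an exchange factor for Ras, rose by 0.75 and the catalytic subunit gene Pik3ca by 0.63 (limma adjusted p = 5.01e-04 and 0.00258). Over all 6 arrays Pik3r3, Shc1, Sos2 and Pik3ca differed by −2.26, −1.28, 0.19 and 0.26. Pik3r3, Shc1, Sos2 and Pik3ca were chosen after their values were seen.

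Of 23 genes of receptor turnover and inhibition, 1 fell with all arrays and 4 had an unadjusted p under 0.05. Cdc37, the co-chaperone that brings kinases to Hsp90, on which the Erbb2 protein depends, read 9.01, 8.88 and 8.93 in DOX replicates 1, 2 and 3, against 9.90, 9.998 and 9.88 in control replicates 1, 2 and 3. It fell by 0.99 on the log2 scale (SE 0.16, limma adjusted p = 0.0345), with all arrays of each group close together. When DOX replicate 2 was left out, Cdc37 was lower by a similar amount (−0.96), and 9 of the 23 rose and 4 fell, against 12.3% of all genes that rose and 14.3% that fell. The ubiquitin ligase gene Cblb rose by 0.96 and Lrig3, a membrane protein related to the receptor inhibitor Lrig1, by 0.55 (limma adjusted p = 2.70e-04 and 0.00755). In the same fit Lrig1 itself differed by −0.28 (limma adjusted p = 0.0773) and Rnf41, the ubiquitin ligase best known for degrading the Erbb3 protein, by 0.14 (limma adjusted p = 0.467). All 6 arrays gave 0.67 for Cblb, 0.47 for Lrig3, −0.63 for Lrig1 and −0.27 for Rnf41, whose sign thus turned, and none of these passed. Cblb, Lrig3, Lrig1 and Rnf41 were chosen after their values were seen.

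The calls of Nrg2, Gab2 and Cdc37 with all arrays were held without DOX replicate 2 and lost without any 1 of the other 5 arrays, with limma adjusted p values of up to 0.251, 0.307 and 0.263. Leaving out 1 array gave −1.56 to −1.19 for Nrg2, 0.92 to 1.08 for Gab2 and −1.02 to −0.95 for Cdc37. Other normalizations also ended calls. Cyclic loess put Cdc37 at −0.58 (limma adjusted p = 0.306) and Nrg2 at −1.13 (limma adjusted p = 0.0894), and a second quantile normalization put them at −0.77 and −1.11 (limma adjusted p = 0.149 and 0.0970). Gab2 passed in both, at 1.28 and 1.23 (limma adjusted p = 0.00962 and 0.0355). With arrays centred on their medians Nrg2 passed (limma adjusted p = 0.0325) and Gab2 and Cdc37 did not (0.0559 and 0.0597).

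Of 10 transcription factors reported to act on receptor genes none passed in limma with all arrays, and 2 had an unadjusted p under 0.05. Tfap2c, an AP-2 factor known to act on the human ERBB2 promoter, read 8.32, 7.26 and 8.86 in DOX replicates 1, 2 and 3, against 9.81, 9.84 and 9.76 in control replicates 1, 2 and 3. Its groups did not overlap, which was so in the lower direction for 20.3% of all genes. In the fit that left out DOX replicate 2, Tfap2c fell by 1.22, Elf3, an epithelial ETS factor, by 0.92 and Foxo1 by 0.43 on the log2 scale (limma adjusted p = 1.71e-04, 1.60e-04 and 0.0277). Gata3, a luminal factor, differed by −0.30 in that fit (limma adjusted p = 0.0718). With all arrays Tfap2c, Elf3, Foxo1 and Gata3 differed by −1.66, −1.07, −0.87 and −1.20 (limma adjusted p = 0.115, 0.0528, 0.384 and 0.459). Of 16 alternative fits Elf3 passed in 6, Tfap2c in 4, Foxo1 in 2 and Gata3 in 1. None of the 10 rose in either fit and 3 fell without DOX replicate 2, against 12.3% of all genes that rose and 14.3% that fell in that fit. With 10 genes these counts are no result about the factors as a group.

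The genes with the pattern most like each member over the 6 arrays were found by the root mean square difference of log2 values after each gene was centred on its own mean, among 9682 or 9683 genes with a mean above the median of all genes. Nearest to Erbb3 were Dis3l, Retreg2 and Nek9, with differences of 0.043, 0.045 and 0.048. Nearest to Erbb2 were Nek6, Dmac1 and Wwp2 (0.084, 0.090 and 0.097), of which Nek6 read 7.55, 6.64 and 7.76 in DOX replicates 1, 2 and 3, against 8.59, 8.59 and 8.53 in control replicates 1, 2 and 3. Mtfr1l, Zfp729a and Add1 were nearest to Egfr (0.030, 0.037 and 0.039), and Narf, Ext1 and S100a11 to Errfi1 (0.040, 0.069 and 0.070). Prm3, Ptprcap and Ppp1r9b were nearest to Erbb4 (0.033, 0.073 and 0.075). Erbb4 itself lay below that median of 5.92, with means of 4.85 in arrays labelled DOX and 4.54 in control arrays. Genes of its own level were therefore not searched. All of these distances share the same 6 arrays.

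Genes beside the members on the chromosome were looked at after the data were seen. Of the 3 protein-coding genes on each side of Erbb2 on chromosome 11, all 6 were measured, none passed in limma with all arrays and 1 had an unadjusted p under 0.05. Mien1, the next gene after Erbb2, fell by 0.56 without DOX replicate 2 (limma adjusted p = 0.00724), while Pgap3, the next gene before it, differed by −0.16 and Grb7, an adaptor gene next to Mien1, by 0.14 (limma adjusted p = 0.317 and 0.443). With all arrays Mien1, Pgap3 and Grb7 differed by −1.03, −0.29 and −0.42. Of 5 measured neighbours of Erbb3 on chromosome 10, Pa2g4, which encodes a protein that binds Erbb3, fell by 0.37 without DOX replicate 2 (limma adjusted p = 0.0296) and the other 4 did not pass. Pa2g4 differed by −0.81 with all arrays. Without DOX replicate 2 none of the 4, 6 and 5 measured neighbours of Egfr, Erbb4 and Errfi1 passed in limma, and 1, 0 and 1 of them had an unadjusted p under 0.05.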

How the data were processed

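RNA of 6 organoid cultures was hybridised to 1-colour mouse whole-transcript arrays. Each deposited value is a probe set summary on the log2 scale, and RMA and affy are named, without versions or order, per the submitters' processing notes. The values were used as deposited, with groups and replicate numbers from the sample titles. Of 34760 probe sets, 21640 had 1 gene symbol, 1321 several and 11799 none, and the last 2 kinds were left out. Where a gene had several probe sets, that of the highest mean stood for it, which gave 19937 genes. No label, file or note used here names the genome build of the array.

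The comparison of DOX with control used the linear model and two-sided moderated test of limma 3.58.1 (R 4.3.3) without covariates, with p values adjusted by Benjamini-Hochberg over all genes at a threshold of 0.05, and an exact permutation test over arrays, two-sided, served for single values. The fit was tested on simulated data with the spread of the control arrays in both groups and no array like DOX replicate 2. That test therefore does not cover the unequal spread of these data. The members and lists were chosen with earlier results of these data known. Beside the 5 members, the rule named, of each of 5 pathway lists, the genes past the threshold with all arrays or else the 4 with the smallest p without DOX replicate 2, and 3 genes of most similar pattern for each member. Alternatives covered left-out arrays, the replicate number as a block, normalization, filters, probe set averaging and the estimate of the spread, and a scale relative to luminal markers was added after seeing the data. Array weights were estimated gene by gene. P values measure the spread between these arrays, which may be technical.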

Additional observations from a re-analysis of the deposited data

How the results depend on the processing

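Erbb2 and Errfi1 kept their sign in every alternative run, but most alternatives did not call them. Of 16 alternative fits Erbb2 passed in 4 and Errfi1 in 2, with limma adjusted p values of up to 0.458 and 0.755. Leaving out 1 array gave −1.48 to −0.97 for Erbb2, −1.47 to −0.46 for Errfi1, −0.16 to 0.37 for Erbb3, −0.19 to 0.25 for Egfr and −0.038 to 0.49 for Erbb4, and the lowest Erbb3 value was that without DOX replicate 1. Array weights, which gave DOX replicate 2 a weight of 0.033, put Erbb2 at −0.98 and Errfi1 at −0.34, both past the threshold in limma (adjusted p = 1.03e-06 and 0.0393), Egfr at 0.22 and Erbb4 at −0.054. Erbb2 also passed after a second quantile normalization (−1.13) and cyclic loess (−0.93). Egfr was 0.092 after the second quantile normalization, 0.23 after cyclic loess, 0.032 with arrays centred on their medians, 3.98 percentile points higher by rank within an array and 0.58 relative to luminal markers, and Erbb4 was −0.023 after cyclic loess. The 50% filter removed Erbb4. Without single arrays 0 to 16 pathway genes were higher and 0 to 13 lower, and 2 to 2454 and 61 to 2855 of all genes. Pathway counts (higher, then lower) were 4 and 8 with cyclic loess, 16 and 16 with array weights, 0 and 1 with centred arrays or each gene's own variance, and 1 and 1 after the second quantile normalization. Counts of all genes were 557 and 1197 with cyclic loess, 3642 and 3752 with array weights, 15 and 267 with own variance, and 185 higher after the second quantile normalization. Adam10 differed by −0.12 with all arrays, by −0.47 to 0.51 without single arrays, by 0.16 and 0.27 after quantile and cyclic loess normalization and by 0.44 with array weights, and Adam17 by −0.10 to 0.73 without single arrays. The cause of these shifts was not tested.

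With the replicate block 0 pathway genes were higher and 0 lower, and 3 and 159 of all genes (Nrg2, Gab2 and Cdc37 had limma adjusted p = 0.132, 0.218 and 0.205), while no call of the 5 members changed (Erbb2 −1.31, limma adjusted p = 0.207). Deviations from the group means correlated at 0.117, 0.194 and 0.085 between arrays of the same number. With control replicates 1, 2 and 3, DOX replicate 1 correlated at 0.117, −0.185 and 0.088, and DOX replicate 3 at 0.116, −0.182 and 0.085. DOX replicates 1 and 3 were thus nearly alike here, so this check cannot tell whether the numbers mark pairs. The main comparison did not take them as pairs.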
